A study of Mus musculus with 3 samples.

Results

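Serpins are a family of proteins that share 1 fold, and most of them trap and inactivate serine or cysteine proteases. The members examined were the protein-coding mouse genes whose symbol begins with Serpin, found by matching Ensembl identifiers to GENCODE M21. There were 61 such genes among 52661 gene identifiers, of which 21786 were protein-coding. By clade letter, 24 belonged to clade A, 26 to clade B, 3 to clade E, 2 each to clades F and I, and 1 each to clades C, D, G and H.

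An inhibitory serpin offers a flexible reactive loop as bait. When the protease cuts the loop, the serpin changes shape and carries the bound enzyme along, so that both molecules are used up. Clade A proteins are mostly secreted and abundant in plasma, clade B proteins mostly stay inside the cell, and a few members, such as maspin, PEDF and HSP47, do not inhibit proteases at all. In the mammary gland and in vessels, serpins are known for their part in matrix turnover, clot removal and protection from proteases of leukocytes.

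RNA sequencing was done on bulk mouse mammary cells sorted as PROCR positive, EpCAM positive and CD49f high. The CD36+ sort came from CD36 positive, PDPN negative cells titled Cdh5+ and Cd36+. The PDPN+ sort held CD36 negative, PDPN positive cells titled Cdh5-, and the double-negative (DN) sort held cells without either protein, titled Cdh5+ and Cd36-. The sources used here give no strain, age, treatment or number of mice, and each population had 1 library, so no value has a replicate error and no test between populations could be made. Differences described here are between these libraries, and intervals and floors cover counting error only.

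Total estimated counts ran from 51138993 to 67675778 a library. The labels call all 3 populations mammary epithelial cells. The 15 endothelial markers of a fixed list all reached 10 CPM (counts scaled to library size) in the CD36+ and DN sorts, with summed levels of 42233 and 31338 CPM, against 7 of 15 and 467 CPM in the PDPN+ sort. Ackr1 alone gave 18761, 129 and 17174 CPM of these sums in the CD36+, PDPN+ and DN sorts. The 12 basal and myoepithelial markers summed to 137, 6307 and 303 CPM across the CD36+, PDPN+ and DN sorts, with 5, 12 and 7 of 12 at 10 CPM. Krt14, a basal keratin, stood at 0.186, 1425 and 123 CPM and Acta2 at 37.0, 829 and 38.4 CPM. Luminal markers summed to 666, 787 and 524 CPM, with 8, 5 and 6 of 12 at 10 CPM, pericyte markers to 259, 70.6 and 189 CPM, and markers of platelets and erythroid cells or of adipocytes to at most 72.9 CPM. In the CD36+ and DN sorts the endothelial sum thus far exceeded the luminal and basal sums, which goes against a purely epithelial label, and each library is called here by the surface proteins of its sort. Low-input and stranded kits were both used in the study, and the sources used here do not say which one served which library, so kit and population cannot be told apart.

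Serpin transcripts were most abundant in the DN sort. Levels are given in CPM after TMM scaling, and comparisons between genes in TPM, which correct for transcript length. The 61 genes summed to 663 TPM in the CD36+ sort, 1008 TPM in the PDPN+ sort and 2231 TPM in the DN sort, or 0.0663%, 0.101% and 0.223% of all transcripts. In each library, the 3 leading genes were enough to reach 50% of that sum by TPM. The leading gene by TPM was Serpinb6a in the CD36+ sort, with 28.9% of the sum, Serpinb5 in the PDPN+ sort, with 32.6%, and Serpina1b in the DN sort, with 21.1%. In these bulk libraries, fewer cells of a type and less RNA per cell cannot be told apart.

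The clades shared this sum differently in each library. Clade A held 31.8% of the serpin TPM in the CD36+ sort, 3.96% in the PDPN+ sort and 47.6% in the DN sort. Clade B held a more even part, at 49.1%, 49.2% and 46.0% in the same order, but through different genes. Clades E, F, G and H together made up much of the rest of the PDPN+ sum, at 7.68%, 13.2%, 9.05% and 16.6%. In the DN sort the same 4 clades held 0.992%, 0.000536%, 2.62% and 1.84%.

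**Figure D1:**
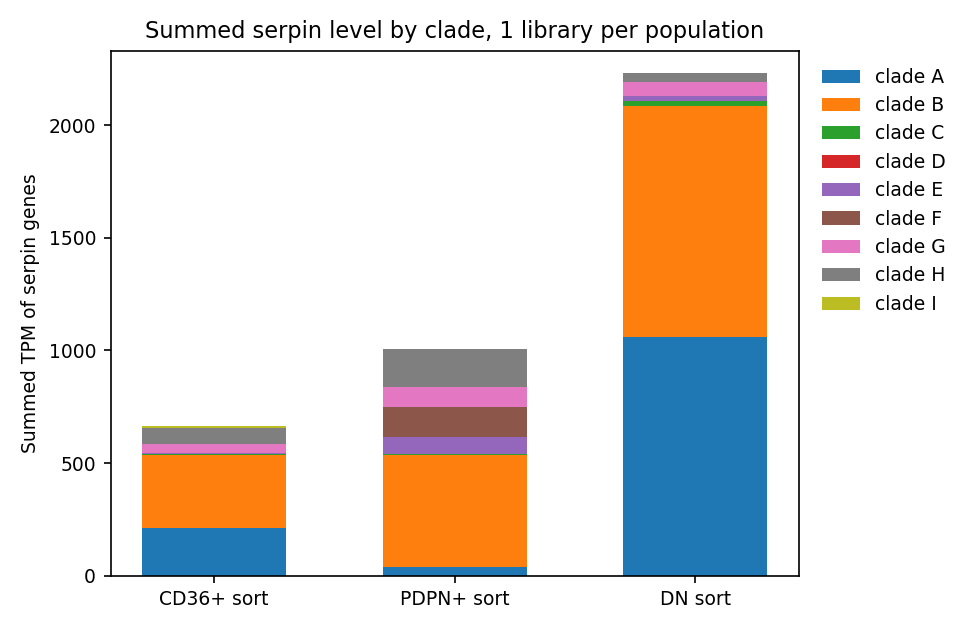
Stacked bars give the summed TPM of the 61 serpin genes in each library, divided by clade letter, from 1 library per population with no error bar. Clade A fills 1061 of 2231 TPM in the DN sort and 39.9 of 1008 TPM in the PDPN+ sort.

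Of the 61 genes, 22 reached 10 CPM in at least 1 library, 7 had 1 to 10 CPM in their highest library, and 32 stayed below 1 CPM everywhere. Within the last group 10 genes had 0 counts in all 3 libraries. A level of 10 CPM was reached by 13 serpins in the CD36+ sort, 10 in the PDPN+ sort and 19 in the DN sort. Clade A had 5, 0 and 8 such genes in the same order, and clade B had 5, 5 and 6.

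**Figure D2:**
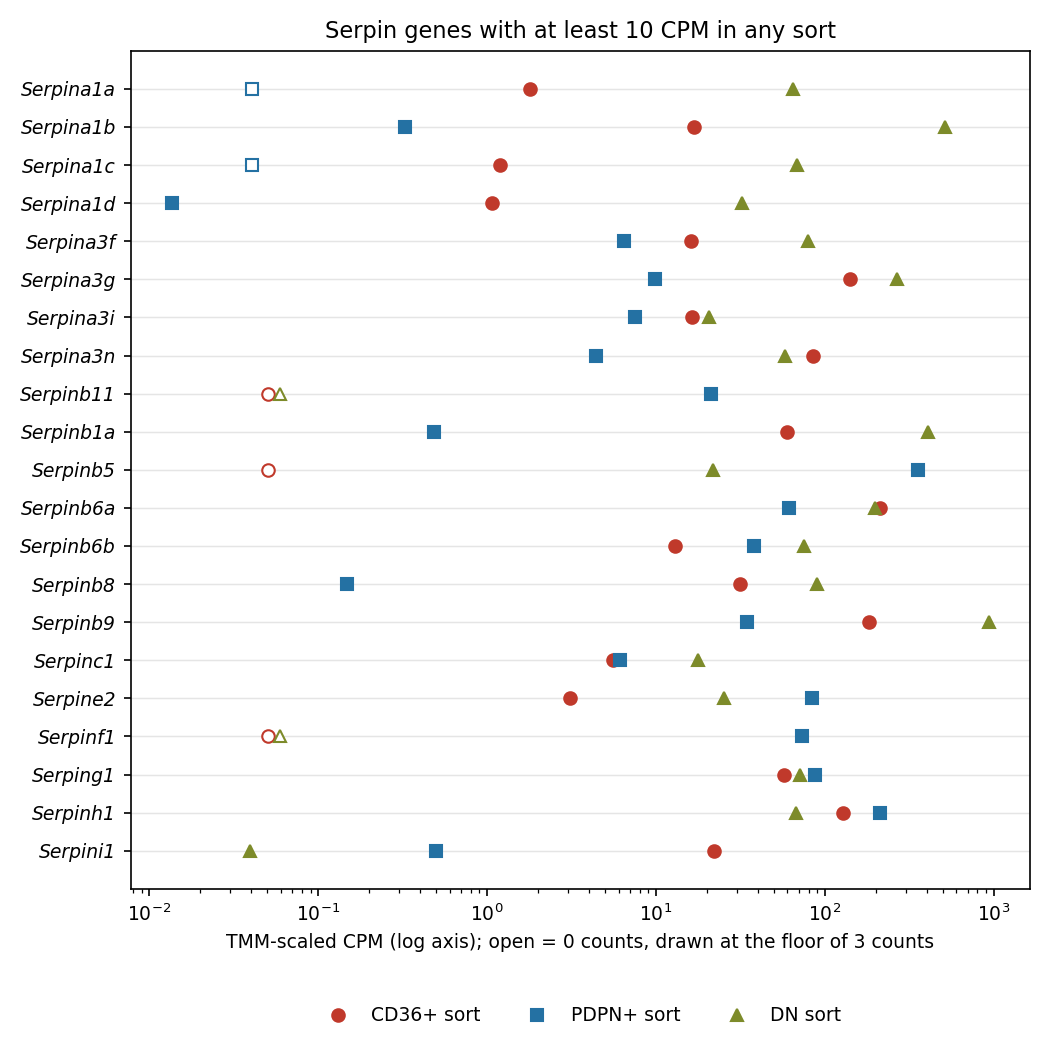
The plot shows the TMM-scaled CPM (log axis) of 21 of the 22 serpin genes that reached 10 CPM, 1 point per library, with 0 counts drawn as open symbols at the floor of 3 counts. Serpinb11, Serpinb5 and Serpinf1 lie highest in the PDPN+ sort, while the Serpina1 genes lie highest in the DN sort, up to 514 CPM for Serpina1b.

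A gene was called apart between libraries where its levels differed at least 4-fold, with a prior count of 2, with no less than 10 CPM in the higher one. Between the CD36+ and PDPN+ sorts, 7 serpins were apart and higher in the CD36+ sort, and 4 were lower, of 18 with enough reads. These are 38.9% and 22.2% of those 18, beside 15.1% higher and 17.6% lower among all 9387 genes with enough reads, so the second share lies near the background. Between the DN and PDPN+ sorts, 10 of 21 were higher in the DN sort (47.6%) and 3 lower (14.3%), beside 14.9% and 19.3% of 9515 genes. These comparisons share the PDPN+ sort and are not independent of each other. Between the CD36+ and DN sorts, 1 of 20 was higher in the CD36+ sort (5%) and 10 were lower (50%), beside 12.2% and 11.9% of 8968 genes.

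Over the serpins with enough reads, the median log2 difference was 1.21 for CD36+ against PDPN+, 1.70 for DN against PDPN+ and -1.98 for CD36+ against DN, beside -0.02, -0.11 and 0.11 over all genes with enough reads. A serpin enters these medians through the library in which it is high, and several are close copies of each other, so they are descriptions only. With Serpina1a to Serpina1e summed to 1 gene, an alternative added after seeing the data, the counts of 10 became 7 in both comparisons with the DN sort. The number of serpins with enough reads fell as well. The other counts of genes apart stayed as they were under that alternative.

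The genes Serpina1a to Serpina1e encode alpha-1-antitrypsin, a secreted inhibitor of neutrophil elastase that is made mainly in the liver and that mice carry in several copies. All lie on chromosome 12 on the minus strand of mm10, within a row of 23 clade A genes from 103614786 to 104414329. Serpina1b stood at 16.9 CPM in the CD36+ sort, 0.325 CPM in the PDPN+ sort and 514 CPM in the DN sort. It was the most abundant serpin of the DN sort by TPM, at 470 TPM. Serpina1a stood at 1.79, 0 and 64.3 CPM in the same order, Serpina1c at 1.199, 0 and 68.3 CPM and Serpina1d at 1.064, 0.0135 and 32.1 CPM. Serpina1e reached 9.82 CPM in the DN sort and 0.220 CPM in the CD36+ sort, with 0 counts in the PDPN+ sort. Serpina1f, in the same row, had 2, 35 and 18 counts in the CD36+, PDPN+ and DN sorts. It was highest in the PDPN+ sort and is left out of the Serpina1 sum. Each of the 5 genes Serpina1a to Serpina1e was highest in the DN sort and lowest in the PDPN+ sort.

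These copies are hard to tell apart by short reads. Of the distinct 31-base words in their GENCODE transcripts, 85.8% in Serpina1c, 65.2% in Serpina1a, 64.7% in Serpina1d, 54.2% in Serpina1e and 44.7% in Serpina1b also occur in another gene. The division of reads among them is therefore an estimate, and their sum is firmer. Summed over the 5 genes, counts were 1252 in the CD36+ sort, 25 in the PDPN+ sort and 34771 in the DN sort, or 21.1, 0.338 and 689 CPM. The sum was 32.6-fold lower in the CD36+ sort than the DN sort (95% counting interval 30.8 to 34.5). It was 2037-fold higher in the DN sort than the PDPN+ sort (1380 to 3149) and 62.6-fold higher in the CD36+ sort than the PDPN+ sort (42.2 to 97.1).

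Markers of hepatocytes, the main known source of this protein, were near 0. The 8 markers of that list summed to 6.32, 0.0406 and 1.82 CPM across the CD36+, PDPN+ and DN sorts, none reached 10 CPM, and Alb, the albumin gene, had 0, 1 and 1 counts. In the CD36+ and DN sorts nearly all of that sum came from Hp, which encodes haptoglobin, at 6.28 and 1.76 CPM.

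The Serpina3 genes are the mouse expansion of alpha-1-antichymotrypsin, and several encode inhibitors of leukocyte proteases. Serpina3g, known as an inhibitor of cathepsins inside the cell, stood at 140.0 CPM in the CD36+ sort, 9.84 CPM in the PDPN+ sort and 266 CPM in the DN sort. It was 14.2-fold higher in the CD36+ sort than the PDPN+ sort (13.2 to 15.4) and 27.0-fold higher in the DN sort than the PDPN+ sort (25.0 to 29.1). By TPM the first of these folds was 8.90. Between the CD36+ and DN sorts it was 1.90-fold apart (1.84 to 1.95), which is below the size rule. Serpina3n, an inhibitor of granzyme B in the mouse, stood at 84.6, 4.42 and 57.8 CPM in the same order. Of the 4 Serpina3 genes that reached 10 CPM, it was the 1 that was highest in the CD36+ sort, 1.46-fold above the DN sort (1.40 to 1.53).

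Serpina3f stood at 16.0 CPM in the CD36+ sort, 6.44 CPM in the PDPN+ sort and 79.3 CPM in the DN sort, and it was 4.95-fold lower in the CD36+ sort than the DN sort (4.61 to 5.32). Serpina3i stood at 16.4, 7.54 and 20.5 CPM, within the size rule in every comparison. These 4 genes share 21.6% to 28.4% of their 31-base words with other genes, fewer than the Serpina1 copies, and none of them had another gene of the annotation overlapping it. All 10 coding Serpina3 genes summed to 258, 31.02 and 425 CPM. That sum was 1.65-fold lower in the CD36+ sort than the DN sort (1.61 to 1.68), beside 32.6-fold for the Serpina1 sum from the same chromosome.

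The remaining clade A genes were low. Serpina10, an inhibitor of coagulation factor X that acts with protein Z, was highest in the PDPN+ sort at 6.68 CPM, with 0.101 CPM in the CD36+ sort and 0.218 CPM in the DN sort. Serpina3c reached 2.72 CPM in the PDPN+ sort and Serpina9, known from germinal centre B cells, 2.08 CPM in the CD36+ sort. Serpina5, the protein C inhibitor, had 0 counts in the CD36+ sort and 1 count in each of the others. Procr, which encodes the protein C receptor of the sort, stood at 746, 208 and 528 CPM across the CD36+, PDPN+ and DN sorts. The hormone carriers Serpina6 and Serpina7, which bind corticosteroids and thyroxine, had 0 counts in all libraries and 1 count in the DN sort. A floor of 3 counts allows levels up to 0.0507, 0.0406 and 0.0594 CPM across the CD36+, PDPN+ and DN sorts.

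Clade B genes lie in 2 rows, 11 genes on chromosome 1 and 15 on chromosome 13. Serpinb5 encodes maspin, a non-inhibitory serpin named for its presence in normal mammary epithelium. It lies at 106861173 to 106883348 on the plus strand of chromosome 1 and stood at 0 counts in the CD36+ sort, 357 CPM in the PDPN+ sort and 21.6 CPM in the DN sort. It was 16.5-fold lower in the DN sort than the PDPN+ sort (15.5 to 17.5), or 30.1-fold by TPM, and at least 427-fold higher in the DN sort than the CD36+ sort. No part of its transcripts occurs in another gene at 31 bases. The DN sort held 6.07% of the PDPN+ level of Serpinb5 by CPM and 3.32% by TPM. It held 4.81% by CPM and 3.94% by TPM of the PDPN+ level of the 12 basal and myoepithelial markers summed. The CD36+ sort held 2.18% of that marker sum, with 5 of the 12 markers at 10 CPM. There Acta2 stood at 37.0 CPM, beside 38.4 CPM in the DN sort, while Trp63, the basal transcription factor, had 3 counts and Krt14 had 11 counts. The part of basal cell RNA in the Serpinb5 reads of the DN sort was not tested.

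Of the other genes of the chromosome 1 row, Serpinb11 and Serpinb2 were highest in the PDPN+ sort. Serpinb11 had 21.1 CPM there and 0 counts in both other libraries, a ratio of at least 416 against the CD36+ and at least 355 against the DN sort. Serpinb2, which encodes plasminogen activator inhibitor type 2, had 9.05 CPM in the PDPN+ sort and 0 counts in the others. Its transcripts share 11.2% of their 31-base words with Serpinb10, which it overlaps on the same strand. Serpinb8, at the other end of the row and known as an inhibitor of furin, went the opposite way, at 31.5, 0.149 and 89.3 CPM across the CD36+, PDPN+ and DN sorts. It was 212-fold higher in the CD36+ sort than the PDPN+ sort (118 to 426), or 437-fold by TPM, and 2.83-fold lower in the CD36+ sort than the DN sort (2.68 to 2.99). Serpinb13 stayed at or below 0.878 CPM, and the squamous antigen homologs Serpinb3a to Serpinb3d had at most 1 count in any library.

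**Figure D3:**
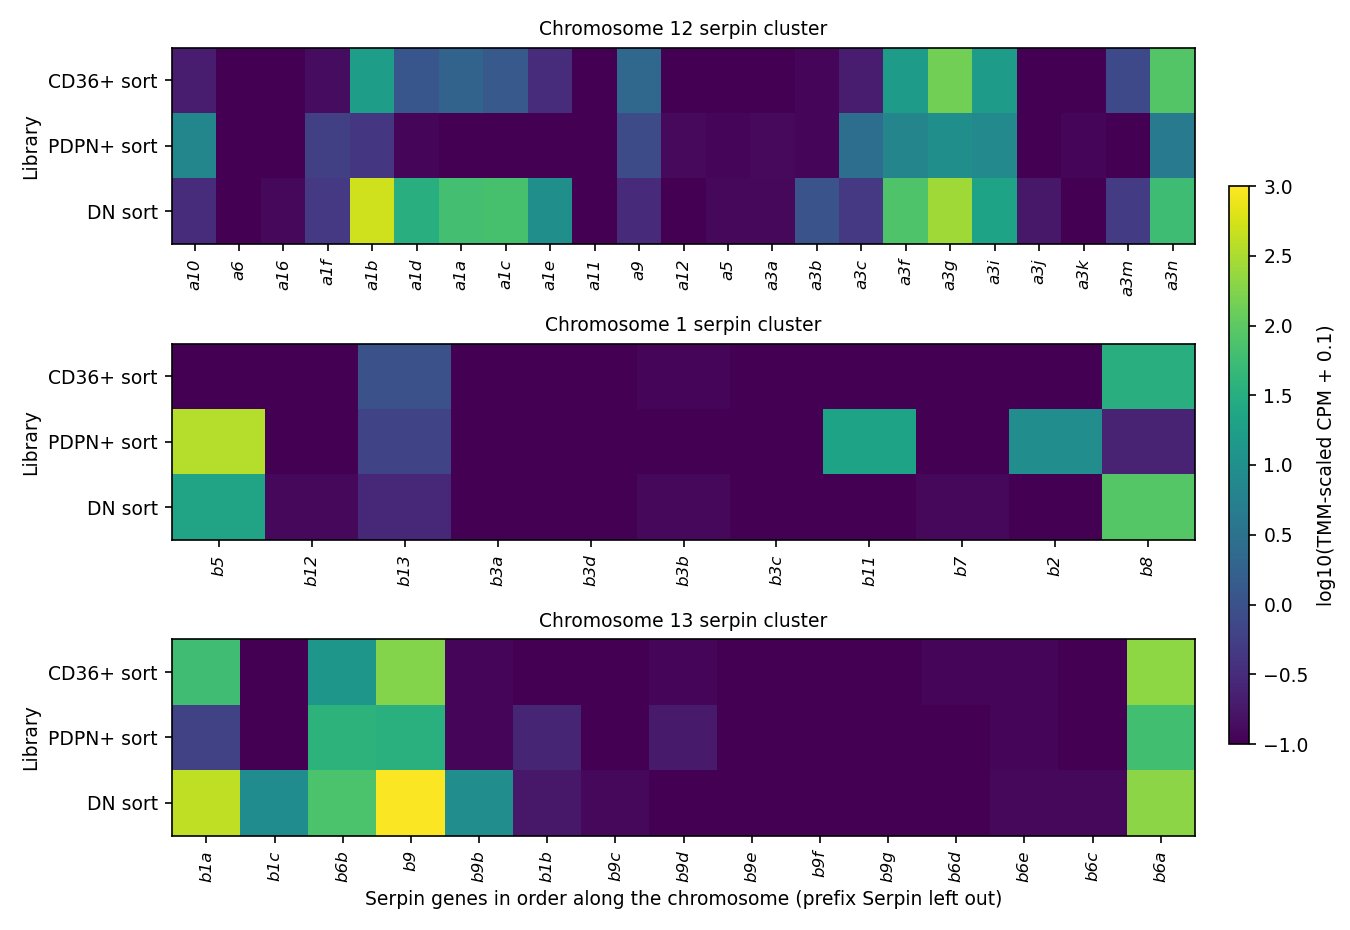
Colour gives log10 of TMM-scaled CPM plus 0.1 for every serpin gene of the chromosome 12, 1 and 13 rows, placed in gene order with 1 line per library. Within the chromosome 1 row, Serpinb5, Serpinb11 and Serpinb2 are bright in the PDPN+ line and Serpinb8 is bright in the CD36+ and DN lines.

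Serpinb9 encodes an inhibitor of granzyme B that shields cells from their own or a killer cell's granules. It lies at 33003250 to 33017957 on the plus strand of chromosome 13. Its level was 182 CPM in the CD36+ sort, 34.7 CPM in the PDPN+ sort and 935 CPM in the DN sort. That was 5.14-fold lower in the CD36+ sort than the DN sort (5.04 to 5.25) and 26.9-fold higher in the DN sort than the PDPN+ sort (25.9 to 28.0). By TPM it stood at 62.3, 16.7 and 351, so that per transcript length it lay below Serpina1b in the DN sort. Its neighbour Serpinb9b had 1 count in the CD36+ sort, 1 count in the PDPN+ sort and 9.15 CPM in the DN sort. The other 5 Serpinb9 copies had at most 7 counts in any library.

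Serpinb1a, an inhibitor of neutrophil elastase and cathepsin G, stood at 59.7 CPM in the CD36+ sort, 0.487 CPM in the PDPN+ sort and 408 CPM in the DN sort. It was 6.83-fold lower in the CD36+ sort than the DN sort (6.59 to 7.08). The fold between the DN and PDPN+ sorts was 837 (605 to 1196) and rests on 36 counts in the PDPN+ sort. By TPM it was 155, from 342 and 2.20 TPM. Serpinb1c reached 8.63 CPM in the DN sort and had 0 counts in the others. Markers of myeloid and mast cells, in which these genes are also known, summed to 10.7, 6.34 and 1.505 CPM across the CD36+, PDPN+ and DN sorts, with 0 of 12 at 10 CPM in any library. Of the 12, 7, 5 and 8 had 0 counts, S100a9 among them in all 3 libraries. Ptprc stood at 1.10, 0.798 and 0.970 CPM, so most of the CD36+ and PDPN+ sums came from other members of the list. Markers of T and B cells summed to 8.80, 3.35 and 17.8 CPM, again with none at 10 CPM. That list also holds Ptprc, and most of each of its sums came from its other members. The part of these cells in the serpin levels was not tested.

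Serpinb6a, an intracellular inhibitor of cathepsin G, was the most even of the abundant clade B genes. It stood at 212 CPM in the CD36+ sort, 60.9 CPM in the PDPN+ sort and 198 CPM in the DN sort. Its 1.07-fold gap between the CD36+ and DN sorts turned direction under scaling by total counts and by the deposited TPM. Serpinb6a overlaps Ripk1 and Nqo2 on the opposite strand and shares 28.9% of its 31-base words with other genes, 13.1% with Nqo2, and the strand setting of the counting is not given, so its level is uncertain. Serpinb6b, an inhibitor of granzyme A, had another order, at 12.96, 38.0 and 74.9 CPM, and was lowest in the CD36+ sort by 5.78-fold against the DN sort (5.34 to 6.25).

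Promoter sequences are shown for 4 members as examples only, 2 that were highest in the PDPN+ sort and 2 that were highest in the DN sort. They are RefSeq windows on GRCm38.p6 from 250 bases before to 50 after an annotated start, printed 5′ to 3′ on the strand of the gene. All 4 genes lie on the plus strand, and the start used in these cells was not measured. The windows are chr1:106860925-106861224 for Serpinb5, chr1:107362064-107362363 for Serpinb11, chr12:104235897-104236196 for Serpina3g and chr12:104214294-104214593 for Serpina3f. Capitals mark the E-box form CAGGTG in the clade B genes and the gapped motif TTCNNNGAA in the Serpina3 genes.
Serpinb5: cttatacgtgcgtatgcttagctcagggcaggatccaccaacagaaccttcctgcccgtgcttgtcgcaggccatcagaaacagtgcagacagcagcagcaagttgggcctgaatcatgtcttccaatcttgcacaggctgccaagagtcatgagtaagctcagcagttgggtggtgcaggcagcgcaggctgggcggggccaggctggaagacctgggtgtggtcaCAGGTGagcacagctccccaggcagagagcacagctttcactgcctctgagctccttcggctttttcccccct
Serpinb11: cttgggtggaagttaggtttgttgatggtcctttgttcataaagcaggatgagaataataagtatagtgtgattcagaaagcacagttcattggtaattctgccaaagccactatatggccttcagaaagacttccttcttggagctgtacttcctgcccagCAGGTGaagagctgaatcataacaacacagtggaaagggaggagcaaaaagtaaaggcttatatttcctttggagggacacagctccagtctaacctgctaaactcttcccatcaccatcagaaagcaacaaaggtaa
Serpina3g: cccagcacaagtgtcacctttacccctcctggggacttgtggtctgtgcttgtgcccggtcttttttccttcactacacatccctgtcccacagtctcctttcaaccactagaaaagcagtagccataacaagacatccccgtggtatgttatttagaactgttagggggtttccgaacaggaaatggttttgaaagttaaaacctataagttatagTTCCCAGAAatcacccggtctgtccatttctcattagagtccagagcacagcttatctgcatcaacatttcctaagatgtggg
Serpina3f: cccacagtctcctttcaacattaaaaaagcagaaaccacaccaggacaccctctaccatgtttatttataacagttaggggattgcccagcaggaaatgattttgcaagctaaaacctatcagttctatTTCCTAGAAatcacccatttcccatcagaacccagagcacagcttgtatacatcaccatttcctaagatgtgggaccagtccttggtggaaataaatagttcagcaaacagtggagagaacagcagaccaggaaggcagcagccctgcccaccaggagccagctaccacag

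The E-box CANNTG is the kind of site that E proteins such as TCF4, named in the study's title, bind. Serpinb5 held CAGGTG, which is 1 form of it, at position -23 from the RefSeq start, and Serpinb11 held it at -88. CAGGTG stood in 5 of the 21 windows of serpins that reached 10 CPM. The others were of Serpina1c, at -211, Serpinb6a, at -17, and Serpini1, at -143, which were not highest in the PDPN+ sort. Windows of Serpine2, Serpinf1 and Serpinh1, which were highest there, held none. Among all 32851 windows, 20.2% held CAGGTG, beside 16 of 61 windows of serpin genes (26.2%). The windows cover 52 of the 61 genes, some with overlapping windows. An E-box in any form stood in 37 of the 61 serpin windows (60.7%) and in 72.3% of all windows. The form CAGCTG stood in 9 of 61 (14.8%) and in 16.3%. TTCNNNGAA, which has the spacing of a STAT site, stood at -33 in Serpina3g, at -121 in Serpina3f and at -102 in Serpina3i, while the Serpina3n window had no match. It occurred in 11 of 61 serpin windows (18%) and in 8.30% of all windows. Of those 11, the windows of Serpina11, Serpina3f and Serpinb2 were overlapping ones that repeated the same site, so the share by gene is smaller. GGAA, the core of ETS factor sites, stood in 56 of 61 serpin windows (91.8%) and in 96.0% of all windows. Both strands were searched, the named E-box forms overlap the general one by definition, and TTCNNNGAA was added after the values were seen. A match describes letters in a window and is not a measured site.

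Serpine2, of clade E, encodes protease nexin 1, which blocks thrombin and urokinase. Its level was 3.09 CPM in the CD36+ sort, 84.4 CPM in the PDPN+ sort and 25.1 CPM in the DN sort. That was 27.3-fold lower in the CD36+ sort than the PDPN+ sort (23.6 to 31.8) and 8.12-fold lower than in the DN sort (6.95 to 9.53). By TPM these folds were 55.3 and 12.2. Serpine3 stayed at or below 0.673 CPM.

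Serpini1, neuroserpin, an inhibitor of tissue plasminogen activator, was the serpin apart towards the CD36+ sort when set against the DN sort. It stood at 22.1 CPM in the CD36+ sort, 0.5003 CPM in the PDPN+ sort and 2 counts in the DN sort, a fold of 559 (155 to 4621) between the first and the last. By TPM, Serpini1 stood at 6.96, 1.27 and 0.0124, so it did not reach 10 TPM in any library, and its gap to the PDPN+ sort was narrower than the 44.3-fold by CPM (31.9 to 63.2). Serpini2 had 0 counts in all libraries. Serpinf2, the inhibitor of plasmin itself, had 0, 0 and 1 counts.

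The plasminogen system, which these proteins are known to restrain, was present on its activator side. Of 15 listed genes of plasminogen activation, 1 was apart and higher in the CD36+ sort than the PDPN+ sort, namely Plaur, and 3 were lower, namely Lrp1, St14 and Vldlr, of 10 with enough reads (median log2 difference -0.74). Beside the 15.1% and 17.6% of all genes, counts this small lie near the background, and the shares over all genes given above are the background for each of the lists that follow. Plat, the tissue plasminogen activator, stood at 252, 158 and 235 CPM across the CD36+, PDPN+ and DN sorts. Plaur, the urokinase receptor, stood at 1241, 297 and 654 CPM. Lrp1 and Vldlr, receptors that clear serpin and protease complexes, were both highest in the PDPN+ sort, Lrp1 at 5.96, 47.8 and 1.76 CPM and Vldlr at 36.7, 164 and 108 CPM. Anxa2 and S100a10, which together hold plasminogen at the cell surface, lay within the size rule in every comparison, with Anxa2 at 652, 534 and 850 CPM. Between the DN and PDPN+ sorts, 0 of 10 were higher and 3 lower, with a median of -0.50. For CD36+ against DN, 1 of 8 was higher, Mmp3, and 0 lower, with a median of -0.14.

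Serpinc1, antithrombin, stood at 5.57, 6.09 and 17.7 CPM across the CD36+, PDPN+ and DN sorts. This gene shares 33.7% of its 31-base words with Zbtb37, which overlaps it on the opposite strand and stood at 9.83, 4.75 and 11.7 CPM, so the 2 genes cannot be told apart with certainty. By TPM, Serpinc1 stood at 2.05, 3.16 and 22.7, so that it was 11.1-fold lower in the CD36+ sort than the DN sort, against 3.18-fold by CPM. Serpind1, heparin cofactor II, had 0 counts in all 3 libraries. Of 19 genes of coagulation and protein C, 6 had enough reads in each comparison, and Tfpi and Thbd were apart and higher than in the PDPN+ sort in both others (medians 0.92 for CD36+ and 0.55 for DN). Thbd, the thrombin receptor thrombomodulin, stood at 1276, 47.1 and 748 CPM. Tfpi, a Kunitz inhibitor of the tissue factor pathway, had 85.7, 2.23 and 405 CPM and was also the 1 gene of this list apart between the CD36+ and DN sorts. The order of Tfpi, highest in the DN and lowest in the PDPN+ sort, is that of Serpina1b, Serpinb1a and Serpinb9. F2r, a thrombin receptor, stood at 12.4, 46.1 and 39.0 CPM.

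**Figure D4:**
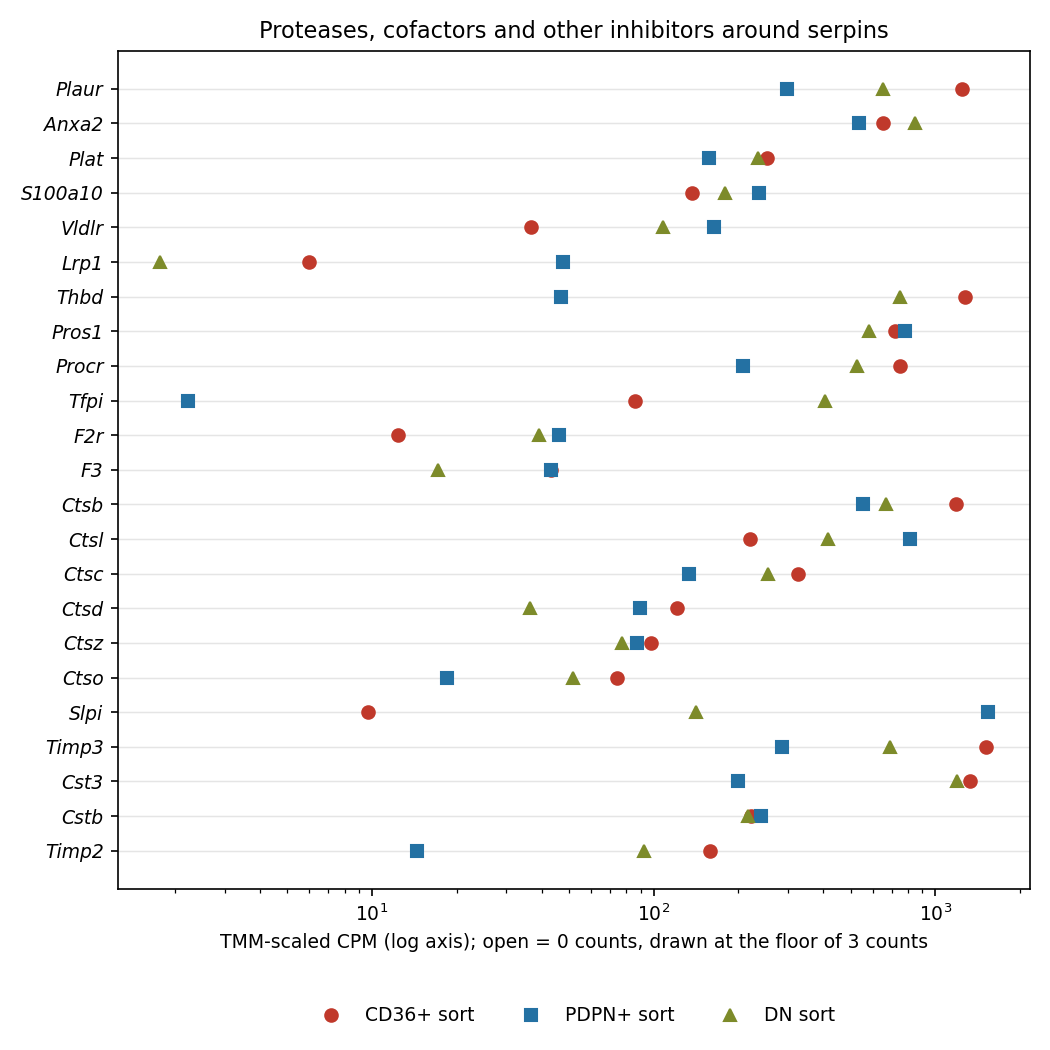
TMM-scaled CPM (log axis) is plotted for the most abundant genes of plasminogen activation, coagulation and protein C, lysosomal proteases and other protease inhibitors, 1 point per library. Thbd and Plaur are highest in the CD36+ sort, at 1276 and 1241 CPM, and Slpi is highest in the PDPN+ sort, at 1541 CPM.

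Serpinf1 encodes PEDF, a secreted protein without inhibitory action that is known to restrain vessel growth. It had 0 counts in the CD36+ sort, 72.8 CPM in the PDPN+ sort and 0 counts in the DN sort. The ratio was at least 1436 against the CD36+ and at least 1225 against the DN sort. By TPM, at 133, it was the third serpin of the PDPN+ sort after Serpinb5, at 329, and Serpinh1, at 167. PEDF is also known from fibroblasts, and the 10 fibroblast markers of a fixed list summed to 117, 704 and 71.3 CPM across the CD36+, PDPN+ and DN sorts, with 2, 8 and 2 of them at 10 CPM. Of these, Dcn stood at 43.1, 423 and 47.8 CPM and Col1a1 at 7.72, 29.1 and 2.46 CPM. The marker sums of the CD36+ and DN sorts were 16.6% and 10.1% of the PDPN+ sum. The part of fibroblast RNA in the Serpinf1 level was not tested.

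Serping1 and Serpinh1 were found in all 3 libraries, and by CPM each differed less than 4-fold between libraries. Serping1, the C1 inhibitor that controls complement and the contact system, stood at 57.4 CPM in the CD36+ sort, 86.7 CPM in the PDPN+ sort and 71.2 CPM in the DN sort. Its widest gap was 1.51-fold (1.45 to 1.58), and the 1.22-fold gap between the DN and PDPN+ sorts vanished under upper quartile scaling. Among the 6 proteases it can meet, C1s1 stood at 9.78, 81.2 and 50.7 CPM, apart and lower in the CD36+ sort against each of the others. C1ra stood at 6.55, 20.1 and 13.1 CPM and Masp1 at 7.92, 10.7 and 20.9 CPM. In these 3 genes, the CD36+ sort was the lowest. They were the 3 of the list with enough reads, 0 were apart and higher in any comparison, and C1s1 was the 1 gene apart (medians -1.61 for CD36+ against PDPN+, -0.62 for DN against PDPN+ and -1.40 for CD36+ against DN).

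Serpinh1 encodes HSP47, a chaperone of the endoplasmic reticulum that binds procollagen and inhibits no protease. Its level was 129 CPM in the CD36+ sort, 212 CPM in the PDPN+ sort and 67.3 CPM in the DN sort, 3.16-fold lower in the last than in the PDPN+ sort (3.04 to 3.28). By TPM that gap was 4.07-fold, which passes the size rule. Of 22 collagen and collagen folding genes, 1 was apart and higher and 4 lower in the CD36+ sort than the PDPN+ sort, of 19 with enough reads (median -0.34). In the DN sort, 0 were higher and 6 lower than in the PDPN+ sort, of 18 (median -1.02), namely Col1a1, Col1a2, Col3a1, Col5a1, Col6a1 and Plod2. For CD36+ against DN, 2 of 14 were higher, Fkbp14 and Plod1, and 0 lower (median 0.26). The collagen folding enzymes P4hb, P4ha1 and Ppib stayed within the size rule, with P4hb at 190, 195 and 304 CPM. Col4a1, a basement membrane collagen, was highest in the CD36+ sort, at 233, 67.5 and 128 CPM.

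Set directly against each other, the libraries titled Cdh5+ were apart in 11 of 20 serpins with enough reads. Apart from Serpini1, these were 10 genes lower in the CD36+ sort, namely Serpina1a, Serpina1b, Serpina1c, Serpina1d, Serpina3f, Serpinb1a, Serpinb5, Serpinb6b, Serpinb9 and Serpine2. Of all 8968 genes with enough reads, 12.2% were higher and 11.9% lower in the CD36+ sort. Among the 10, 4 are Serpina1 copies whose reads are hard to divide. With Serpina1a to Serpina1e summed the count was 7, of fewer genes with enough reads. The 9 within the size rule included Serpina3g, Serpina3n, Serpinb6a, Serping1 and Serpinh1. The endothelial markers of the same libraries had sums of 42233 and 31338 CPM and all 15 markers at 10 CPM in both. Ackr1 alone made up 18761 and 17174 CPM of these sums, so they say little about the other markers.

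**Figure D5:**
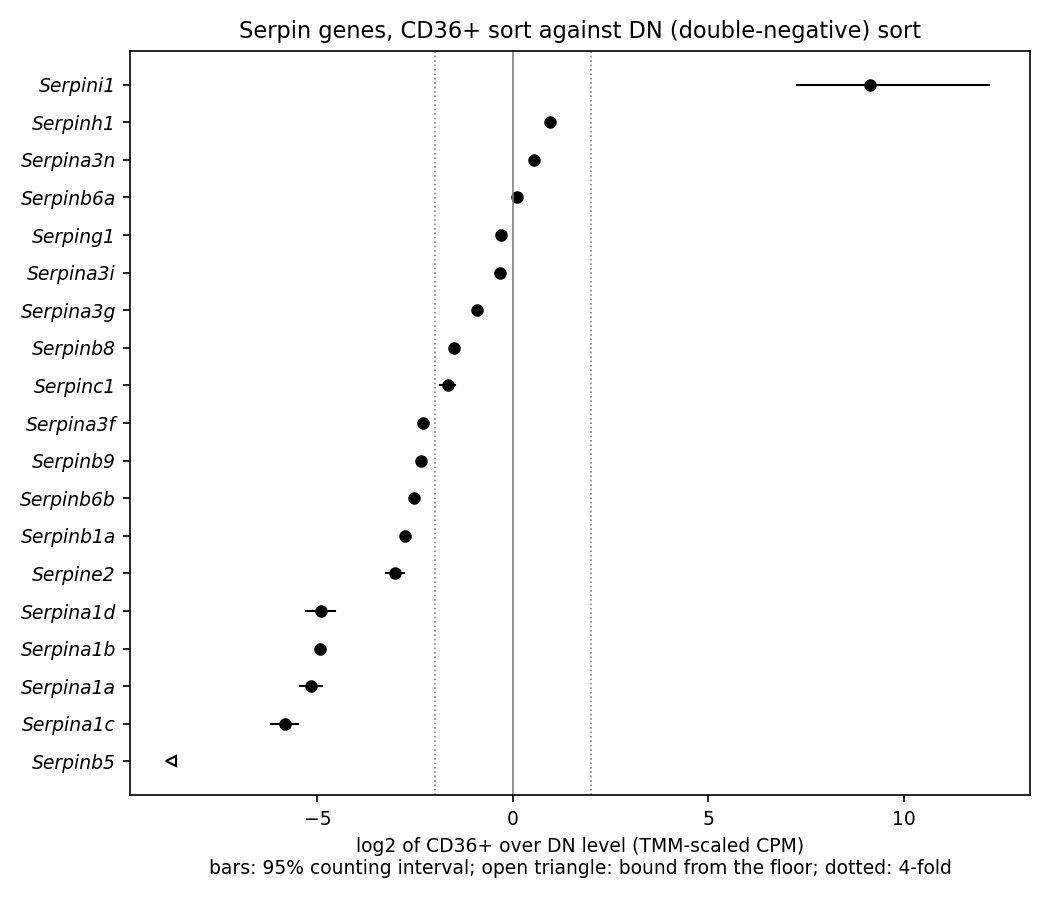
Points give log2 of the CD36+ over the DN level of 19 of the 20 serpins with at least 10 CPM in either library, with bars for the 95% counting interval, an open triangle for a bound and dotted lines at 4-fold. Serpini1 lies far to the right, and 10 genes, from Serpina3f to Serpinb5, lie left of the lower dotted line.

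Intracellular serpins are known to block lysosomal and granule proteases that reach the cytosol. Of 25 lysosomal and granule protease genes, 9 had enough reads in each comparison. Ctsa and Ctso were apart and higher and Ctss lower in the CD36+ sort than the PDPN+ sort (median 0.48), Ctsa was the 1 gene apart for DN against PDPN+ (median 0.27), and Ctss was the 1 gene apart, lower in the CD36+ sort, for CD36+ against DN (median 0.36). Ctsb, a target of Serpina3g, stood at 1185, 552 and 666 CPM across the CD36+, PDPN+ and DN sorts. Ctsl stood at 221, 811 and 417 CPM, in the opposite order. Of 20 listed serine proteases of the Prss, Tmprss, Klk and Htra families, 2 to 4 had enough reads, and Prss23 was the most abundant, at 235, 449 and 525 CPM. Between the DN and PDPN+ sorts, Htra2 and Klk8 were higher and Htra1 lower of 4 (median 1.67), and 0 were apart in the other comparisons, of 2 and 4 (medians -0.80 and -0.82). By TPM, Htra2 stood at 6.87, 4.03 and 6.77 across the CD36+, PDPN+ and DN sorts. It thus did not reach 10 TPM in any library, and its gap between the DN and PDPN+ sorts was narrower than the 8.87-fold by CPM. Klk8, a kallikrein, had 6.08 CPM in the CD36+ sort, 0 counts in the PDPN+ sort and 13.01 CPM in the DN sort.

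Inhibitors of other families also divided by library. Of 22 listed genes, 21 were matched, and 5 were apart and higher and 3 lower in the CD36+ sort than the PDPN+ sort, of 11 with enough reads (median 0.80). The 3 lower genes, Slpi, Spint1 and Pi16, were also lower in the DN sort, where Cst3, Tfpi, Tfpi2 and Timp2 were higher (median 0.91 over 12). Between the CD36+ and DN sorts, 0 of 10 were higher and 3 lower, namely Slpi, Pi15 and Tfpi (median 0.09). Slpi, a secreted inhibitor of elastase, stood at 9.68 CPM in the CD36+ sort, 1541 CPM in the PDPN+ sort and 142 CPM in the DN sort. Slpi and the genes Serpina1a to Serpina1e, which encode secreted inhibitors of the same protease, were thus highest in different libraries. Cst3, cystatin C, stood at 1322, 199 and 1194 CPM and Timp3, an inhibitor of metalloproteases, at 1518, 285 and 690 CPM, while the cytosolic cystatin Cstb was level at 222, 241 and 216 CPM.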

How the data were processed

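The submitters' processing notes name Salmon 0.9.1 with build mm10. The authors deposited estimated counts and TPM per gene for 3 libraries. The sources used here give neither the annotation release nor the strand setting. Estimated counts were rounded, and 52566 of 52661 identifiers matched GENCODE M21 without their version suffix. TMM factors came from edgeR 4.0.16 in R 4.3.3, over all genes. Folds carry exact (Clopper-Pearson) 95% counting intervals, and a fold against 0 counts uses a floor of 3 counts in that library. The calling script was tested on simulated counts that carry counting error only. DESeq2 1.42.0 gave size factors as an alternative. Other work used Python 3.11.15, scipy 1.17.1 and matplotlib 3.10.9.

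Serpins reaching 10 CPM anywhere were named in full, except 1 that is counted but not reported by name here, those from 1 to 10 CPM by their highest library, and the rest mainly as counts. Up to 6 genes with the highest level were named per list, for 7 lists of partners. Further genes were chosen after their values were seen. Members and lists were chosen with earlier results of these data known. Reads carried no molecular identifiers and can be PCR copies. A planned comparison of protein sequences was not made.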

Additional observations from a re-analysis of the deposited data

How the results depend on the processing

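No paired analysis was possible because each population had 1 library. With no minimum level, 12 serpins were higher and 10 lower in the CD36+ sort than the PDPN+ sort. In that setting 7 were lower in the DN sort than the PDPN+ sort, and 3 were higher and 16 lower in the CD36+ sort than the DN sort. Over all genes it gave 3595 higher and 5108 lower, 5218 lower, and 3601 higher and 3655 lower in the same order. The main rule gave 1416 and 1655, 1834, and 1097 and 1070 of all genes. With a minimum of 1 CPM, 7 serpins were lower in the CD36+ and 6 in the DN sort than the PDPN+ sort, and 2 were higher in the CD36+ sort than the DN sort. Over all genes these counts were 3705, 3975 and 2709. A 2-fold rule gave 5 serpins lower in the DN sort than the PDPN+ sort, beside 2870 of all genes. The deposited TPM gave 6 there, and 0 higher in the CD36+ sort than the DN sort, beside 2069 and 830 of all genes. The shares over all genes given for the main rule do not apply to these settings. The other counts of serpins apart, and of serpins at 10 CPM per library, stayed within 1.5 times under every alternative run.

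By CPM in place of TPM, the serpin sums were 1003, 1040.1 and 3057 CPM across the CD36+, PDPN+ and DN sorts, with 28.0%, 3.78% and 36.5% from clade A and 49.7%, 50.2% and 57.1% from clade B. Clade B then exceeded clade A in the DN sort.

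Total counts moved the log2 ratio of well-counted genes by -0.41, -0.23 and -0.17 for CD36+ against PDPN+, DN against PDPN+ and CD36+ against DN, and upper quartile scaling by 0.27, 0.28 and -0.01. Of 244 ratios of named serpins under other scalings or TPM, 4 turned, none of them among the 156 of at least 4-fold. For Serpinb6a, CD36+ against DN, log2 became -0.078 by total counts and -0.039 by TPM. Serpinc1, CD36+ against PDPN+, became 0.14 by upper quartile. Serping1, DN against PDPN+, became 0.0 by upper quartile. A further 106 of the 244 ratios, and 53 of the 156, moved outside their counting interval, or a fixed range where a library held no counts. By deposited TPM this held for 49 of 61 ratios. Serpinb9, CD36+ against PDPN+, fell below the 4-fold rule by total counts, at a log2 of 1.98, and by TPM, at 3.73-fold. The cause was not tested. Depth limits folds of genes with few counts in the lower library, such as Serpini1 and Serpina1d.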

Other observations

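Serpin symbols of other biotypes, 7 in all, were left out of the counts above. Serpinb10, which the annotation gives as a polymorphic pseudogene and which overlaps Serpinb2, had 368 counts in the PDPN+ sort, 4.98 CPM, and 0 counts in the other libraries. Serpinb5, Serpinb11 and Serpinb2 of the same chromosome 1 row were also highest in the PDPN+ sort. The transcribed pseudogene Serpina3h stood at 11.4, 7.83 and 15.03 CPM across the CD36+, PDPN+ and DN sorts, a level like that of Serpina3i, with which it shares 16.3% of the 31-base words of Serpina3i. Whether reads of these 2 were divided correctly was not tested.

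The CPM behind each TPM unit, which follows the length of the transcripts that reads were assigned to, differed between libraries for some members. In CPM before TMM scaling, 1 TPM of Serpinc1 stood for 2.38 in the CD36+ sort, 2.23 in the PDPN+ sort and 0.772 in the DN sort. For Serpinb1a the values were 1.36, 0.256 and 1.18, the PDPN+ value resting on 36 counts. For Serpini1 they were 2.79 in the CD36+ sort and 0.457 in the PDPN+ sort, which had 37 counts. For Serping1, Serpinh1 and Serpinb9 the highest value was at most 1.10 times the lowest.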
